A study of Mus musculus with 4 samples.

Results

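Transcripts of microglia, of other brain macrophages and of the complement system were examined in the ventral midbrain of mice with and without REV-ERBα, the clock nuclear receptor encoded by Nr1d1. The 59 genes were taken by symbol from a list of microglial surface markers, myeloid regulators, lysosomal enzymes, complement components, pattern recognition receptors, cytokines and the ligands that keep microglia in place. Of these, 58 had a probe set annotated to that symbol alone, among 19938 such genes on the array, and each had 1 such probe set. C3, the central component of complement, had none and is not analysed here. Of the 58, 44 had a mean intensity at or above the 40th percentile of all probe sets (an intensity of 167) and were tested, and 14 were below it. Those 14 were Gpr34, Aif1, Ptprc, Cd86, Mrc1, Cd163, Cd14, Tlr4, Tlr7, Nlrp3, Il1b, Tnf, Ccl2 and Cxcl10.

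RNA came from the ventral midbrain of male mice aged 10 to 15 weeks on a C57BL/6J background, and both groups were kept alike: more than 10 days under 12 h of light a day, then 2 days in constant darkness before tissue was taken. The 2 wild-type samples are called WT, and the 2 samples labelled as Rev-erba knock-out are called RKO. How the gene was inactivated, the clock hour of collection and the number of mice behind an array are not given in the sources used here. All values are normalised intensities of an Affymetrix mouse gene array, compared on the log2 scale with limma, and a gene was called changed at a Benjamini-Hochberg adjusted p under 0.05 over all 13587 tested genes. The labels call the samples of a group biological replicates, and with 2 arrays a group their number limits the precision of every value.

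Microglia are the resident macrophages of the brain parenchyma. They depend on signals through the CSF1 receptor and on the transcription factor PU.1, and they survey the tissue with receptors for nucleotides, chemokines, antibodies and microbial products. They make the C1q subunits that start the classical complement cascade, in which C1q tags a surface, C4 and C2 follow, and C3 is cleaved so that cells bearing complement receptors can engulf the target. In the mouse brain this route takes part in the removal of synapses. REV-ERBα represses genes of the clock, and in mouse macrophages it has been reported to repress inflammatory genes, among them Cx3cr1, Ccl2, Il1b and Nlrp3. Loss of REV-ERBα has been reported to raise complement transcripts in the mouse hippocampus.

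The start regions of 6 members that were lower in RKO are shown. Lyz2 was called lower, and the others are lower members of the surface, complement and receptor groups at an unadjusted p under 0.05. C4b and Nos2, the members called higher, and Ctsh had no listed start region. Each window runs from 250 bases before to 50 bases after the RefSeq transcription start of build GRCm38.p6, read 5′ to 3′ along the gene. Capitals mark 1 of 2 short motifs. The first is the PU box GAGGAA, the core to which PU.1 binds, which reads as its reverse complement where it lies on the opposite strand. The second is the half-site AGGTCA, to which REV-ERBα and many other nuclear receptors bind, marked on either strand as well.
Lyz2 (chr10:117282223-117282522, minus strand): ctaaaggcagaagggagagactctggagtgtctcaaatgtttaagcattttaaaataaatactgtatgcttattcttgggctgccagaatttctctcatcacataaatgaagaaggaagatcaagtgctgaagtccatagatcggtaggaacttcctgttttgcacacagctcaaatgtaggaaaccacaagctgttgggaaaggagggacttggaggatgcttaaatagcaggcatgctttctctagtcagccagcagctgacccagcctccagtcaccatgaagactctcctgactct
Fcrls (chr3:87263475-87263774, minus strand): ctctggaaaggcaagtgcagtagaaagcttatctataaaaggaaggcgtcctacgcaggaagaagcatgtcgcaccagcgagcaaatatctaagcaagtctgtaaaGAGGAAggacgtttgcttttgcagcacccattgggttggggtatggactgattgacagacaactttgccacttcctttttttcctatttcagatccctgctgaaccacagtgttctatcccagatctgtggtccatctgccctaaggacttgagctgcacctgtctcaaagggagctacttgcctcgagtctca
P2ry13 (chr3:59210833-59211132, minus strand): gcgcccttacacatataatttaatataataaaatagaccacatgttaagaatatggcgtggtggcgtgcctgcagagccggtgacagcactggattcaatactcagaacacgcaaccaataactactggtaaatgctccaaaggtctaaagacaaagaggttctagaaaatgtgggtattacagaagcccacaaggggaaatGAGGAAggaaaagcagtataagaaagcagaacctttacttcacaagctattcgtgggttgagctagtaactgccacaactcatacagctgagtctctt
C1qc (chr4:136892865-136893164, minus strand): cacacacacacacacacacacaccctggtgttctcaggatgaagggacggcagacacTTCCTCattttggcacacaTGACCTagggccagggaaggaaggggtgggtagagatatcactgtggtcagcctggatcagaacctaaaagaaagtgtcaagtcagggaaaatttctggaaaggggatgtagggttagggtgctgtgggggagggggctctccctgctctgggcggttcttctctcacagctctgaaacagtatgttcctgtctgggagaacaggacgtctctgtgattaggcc
Ly86 (chr13:37345095-37345394, plus strand): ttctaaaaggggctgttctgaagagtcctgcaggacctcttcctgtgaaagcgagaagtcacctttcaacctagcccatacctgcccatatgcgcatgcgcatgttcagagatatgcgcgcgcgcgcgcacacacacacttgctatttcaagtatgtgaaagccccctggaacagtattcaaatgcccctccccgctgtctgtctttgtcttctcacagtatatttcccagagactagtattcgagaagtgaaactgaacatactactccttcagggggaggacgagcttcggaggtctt
Fcer1g (chr1:171234300-171234599, minus strand): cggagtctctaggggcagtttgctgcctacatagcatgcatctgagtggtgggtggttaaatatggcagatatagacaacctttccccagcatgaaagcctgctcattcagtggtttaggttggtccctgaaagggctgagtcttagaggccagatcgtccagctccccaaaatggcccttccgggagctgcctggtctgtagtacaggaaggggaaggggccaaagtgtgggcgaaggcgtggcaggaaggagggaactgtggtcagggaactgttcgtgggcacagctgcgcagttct
The PU box began 144 bases before the start in Fcrls, 48 before it in P2ry13 and, on the opposite strand, 193 before it in C1qc. The window of C1qc also held 1 half-site on the opposite strand, 174 bases before the start. Neither motif was in the window of Lyz2, Ly86 or Fcer1g. Of the 9 members at an unadjusted p under 0.05 with a listed start region, 3 held a PU box, and Tlr2, Tlr3 and Il18, not shown, held none. The window of Tlr2, which lay higher in RKO, held 1 half-site on the opposite strand, at -15 from the start. Those of Tlr3 and Il18 held no half-site.

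Start regions were listed for 40 of the 59 members. A PU box on either strand was in the window of 20 of these 40 (50%), against 31.3% of the 27025 genes with a listed window. The half-site AGGTCA was present in 8 of the 40 (20.0%), against 18.1% of all genes. The longer RORE, the half-site behind an A- and T-rich stretch as REV-ERBα prefers when it binds alone, was in 0 of the 40 members and in 0.259% of all genes. A gene with several listed starts was counted once, and the longer sequence contains the half-site. These matches describe letters in a window and not binding.

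The knocked-out gene was lower in both RKO samples: Nr1d1 had intensities of 2897 and 3099 in WT and 1259 and 1229.7 in RKO (log2 difference -1.27, adjusted p = 2.44e-06 in limma). The tissue expressed dopamine neuron genes, as ventral midbrain should: all 8 listed were above the filter, and 5 of them were higher in RKO. Other tissue markers moved as well. Of 17 tested leptomeningeal genes 10 were lower. Of all tested genes 0.964% were called lower and 0.640% higher. The summed intensity of the 21 listed leptomeningeal genes was 9374 and 9538 in WT against 7356 and 7375 in RKO. RKO replicate 1 stood apart, with a median intensity over the tested genes of 539.8 against 558.6 to 558.7 in the other arrays. Genes below the filter leaned upward in RKO, with a median log2 difference of 0.06 over 6351 genes and 71.2% of them above 0.

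Among the 44 tested members, C4b and Nos2 were higher in RKO and Lyz2 was lower, while the other 41 did not pass. Nos2 entered the test only because its RKO values were high, since both of its WT values were under the filter. The changes were 1.24- to 1.33-fold. C4b encodes complement C4, Nos2 the inducible nitric oxide synthase and Lyz2 the lysozyme of macrophages. The 3 calls make 6.82% of the tested members, against 1.60% of all tested genes called in either direction (0.640% higher and 0.964% lower). Without Nos2, 2 of 43 tested members were called (4.65%). At an unadjusted p under 0.05 there were 12 members (27.3%), against 12.8% of all tested genes. Of these, 9 were lower in RKO (20.5%, against 6.90% of all tested genes) and 3 higher (6.82%, against 5.90%).

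Most members that did not pass lay slightly below 0. Of the 44, 32 had a negative log2 difference (72.7%), against 56.8% of all tested genes, and the median was -0.06 against -0.01. Both RKO arrays were below both WT arrays for 22 members (50%, against 24.6% of all tested genes) and above them for 5 (11.4%, against 17.2%). The groups overlapped for the other 17. Since the tissue is a mixture, fewer microglia and less RNA per microglial cell cannot be told apart in these values. The median of the members also depended on the array left out: it was -0.03 without RKO replicate 1 and -0.09 without RKO replicate 2. The median over all tested genes moved the same way. It was 0.0054 without RKO replicate 1 and -0.03 without RKO replicate 2. In a second list of 44 microglia genes outside the members, 32 were tested: 16 were above and 16 below 0, with a median of 0.00047, 0 called in limma and 4 at an unadjusted p under 0.05, all lower, beside 12.8% of all tested genes at that p. That difference between the lists was not tested.

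**Figure D1:**
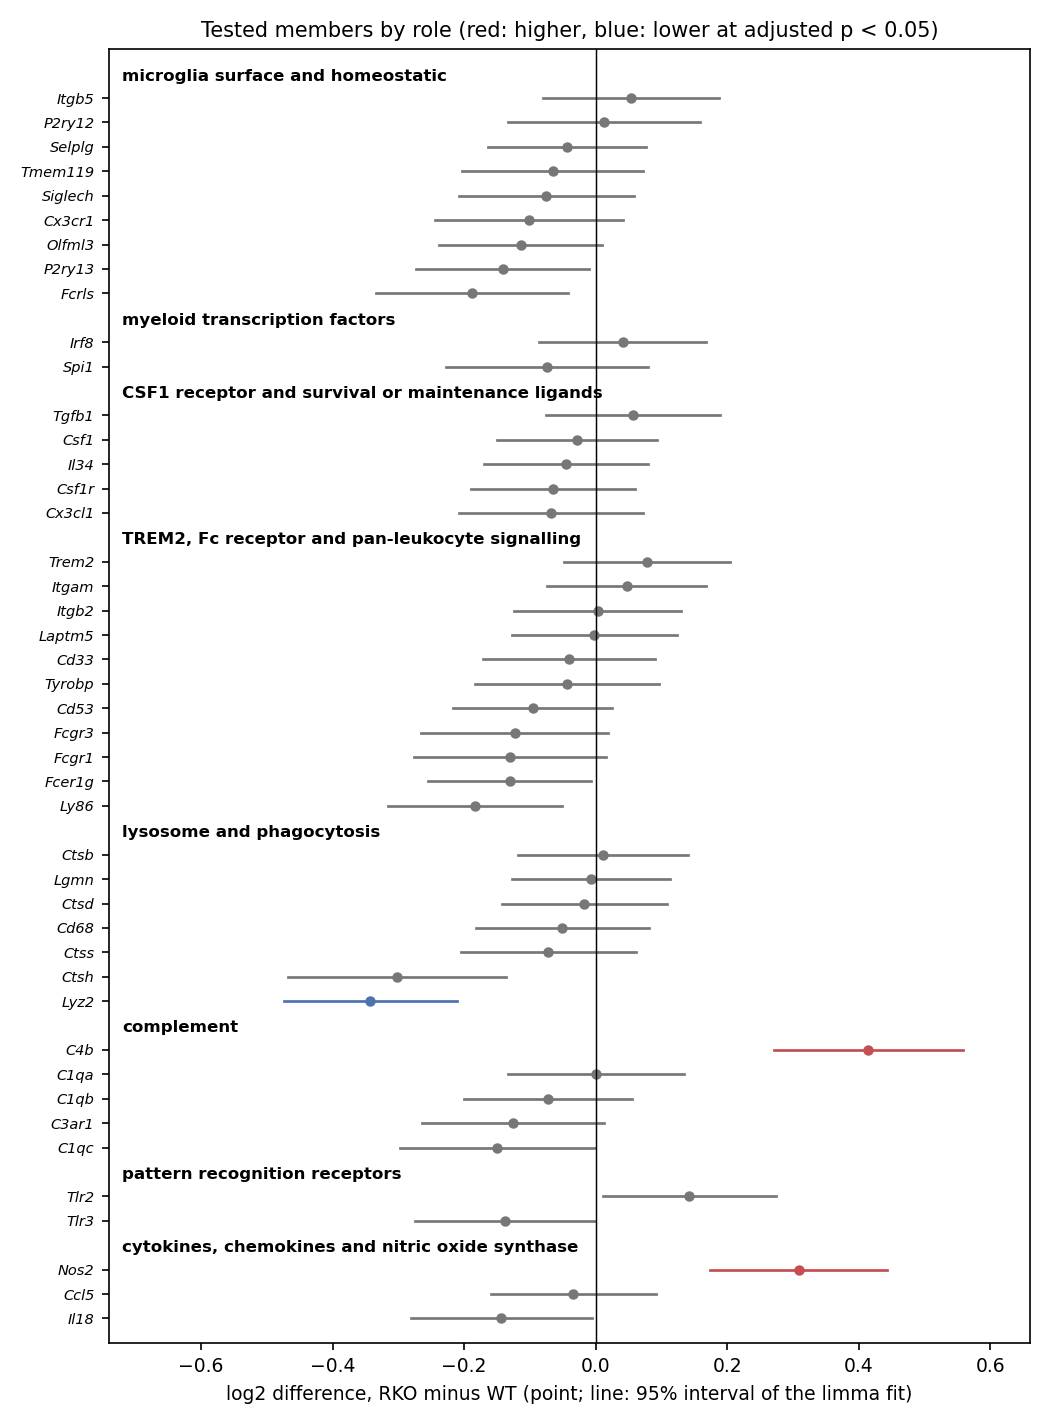
Log2 difference, RKO minus WT, of the 44 tested members with the 95% interval of the limma fit, grouped by role. C4b and Nos2 lie to the right and Lyz2 to the left, and 32 of the 44 points lie below 0.

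The largest rise among the members was that of a complement gene, C4b, while the median of the 5 tested complement members was -0.07. C4b encodes the C4 protein, whose cleavage follows C1q and leads to that of C3, and in the brain it is made by glia other than microglia as well. The WT arrays gave 449 and 416, and the RKO arrays 552 and 601. Both RKO values were above both WT values. The rise was 1.33-fold (log2 difference 0.41, SE 0.0652, 95% interval 0.27 to 0.56, adjusted p = 0.00866 in limma). The call was lost without RKO replicate 2 (0.35, adjusted p = 0.0919 in limma) and when dim genes were kept (adjusted p = 0.150 in limma). C4a, a near-identical neighbouring copy that can share hybridisation with C4b, was below the filter, at 109.6 and 136 in WT against 162 and 155 in RKO. Both RKO arrays were the higher ones here as well, and how the signal is shared between C4b and C4a is uncertain.

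C1q itself did not pass. C1qa, C1qb and C1qc encode the chains of C1q, and in the brain microglia make nearly all of it. C1qa stood at 467 and 428 in WT and at 448 and 447 in RKO. C1qb was 1282 and 1335 in WT against 1216 and 1274 in RKO. C1qc was 686 and 622 in WT against 566 and 613 in RKO. For C1qa the groups overlapped, and for C1qb and C1qc both RKO arrays were the lower ones. The log2 differences were 0.00043, -0.07 and -0.15, and the unadjusted p of C1qc was 0.0487 (adjusted p = 0.385 in limma). The 95% interval of C1qa ran from -0.13 to 0.13, of C1qb from -0.20 to 0.06 and of C1qc from -0.30 to -0.0011. C3ar1, the receptor for the C3a fragment, was at 272 and 287 in WT and 246 and 268 in RKO (log2 difference -0.13, adjusted p = 0.451 in limma). Of the 5 tested complement members, 1 was higher, 0 were lower and 4 did not pass. Over all tested genes 0.640% were higher and 0.964% lower.

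The wider complement list held 44 further genes, of which 41 had a probe set and 20 were tested. In limma 1 was higher, 2 were lower and 17 did not pass, beside 0.640% higher and 0.964% lower among all tested genes, and the median was -0.03. Serping1, the inhibitor of the C1 proteases, was at 472 and 467 in WT against 321 and 348 in RKO. It fell 1.40-fold in limma (log2 difference -0.49 with an SE of 0.0600, adjusted p = 0.00179). The other 2 calls were not complement components. C1ql2 and C1ql3 encode C1q-like proteins that neurons secrete at synapses. C1ql2 was higher (495 and 511 in WT, 657 and 682 in RKO, log2 difference 0.41, adjusted p = 0.00355), and C1ql3 was lower (820.4 and 765 in WT, 616 and 647 in RKO, log2 difference -0.33, adjusted p = 0.0221). Genes of the cascade were mostly dim here: C1ra, C1s1, C1s2, C2, Hc, C6, C7, C8a, C8b, C8g, C9, Cfb and Cfi were below the filter. Among the genes that did not pass, those of lowest p were C1rl, a relative of the protease C1r (log2 difference 0.16, adjusted p = 0.235 in limma), C1ql1 (0.13), Masp1, a protease of the lectin pathway (-0.12), and Cfp, or properdin, which stabilises the alternative pathway (0.12). Of the 4 fits that leave out 1 array, Serping1 was called in 4, C1ql2 in 3 (not without RKO replicate 2) and C1ql3 in 1 (without WT replicate 2). Serping1 fell beside the leptomeningeal list given above, and the part of that tissue in its fall was not tested.

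**Figure D2:**
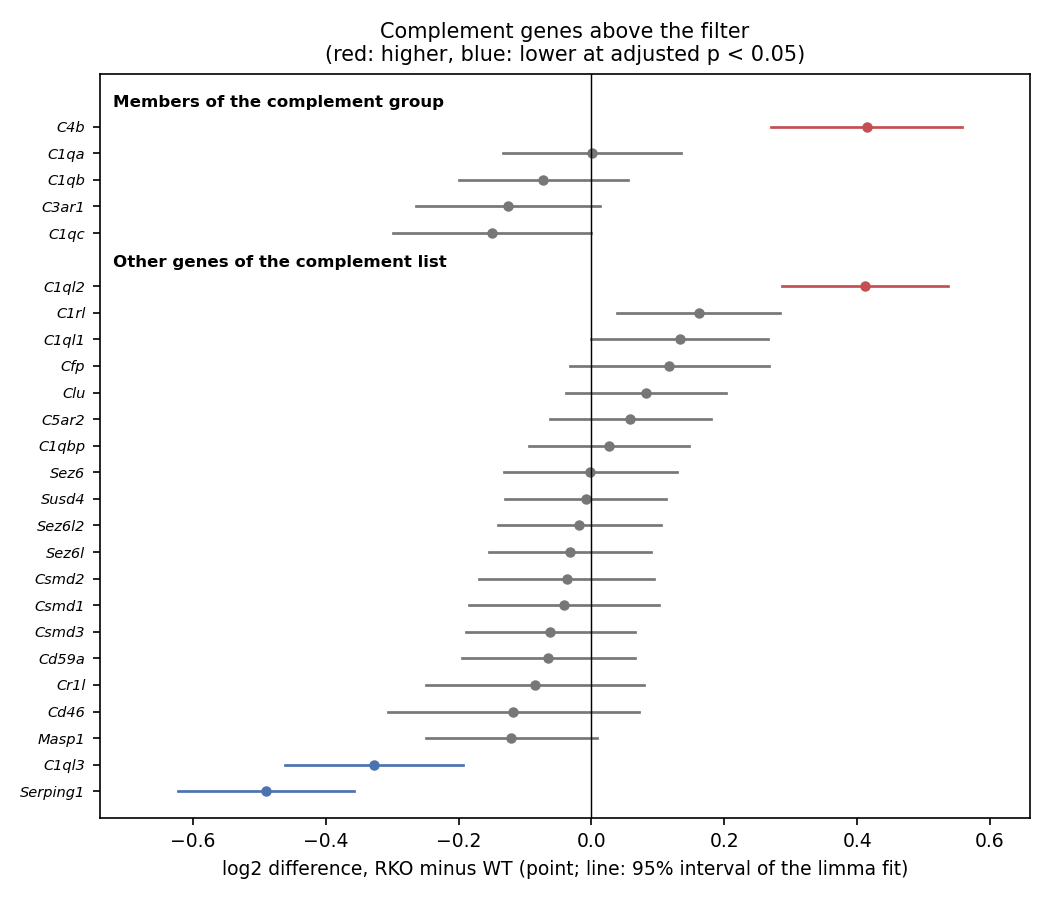
Log2 difference, RKO minus WT, with its 95% interval for the 5 tested complement members and the 20 tested genes of the wider list. C4b (0.41) and C1ql2 (0.41) lie highest, and C1ql3 (-0.33) and Serping1 (-0.49) lowest.

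Genes that mark homeostatic microglia did not pass: of the 9 tested, 0 were called in limma and 2, Fcrls and P2ry13, had an unadjusted p under 0.05. Of all tested genes 12.8% had such a p. Cx3cr1, the receptor for the neuronal chemokine fractalkine, was at 719.7 and 802 in WT and 698 and 719 in RKO. The 2 groups nearly met, with RKO replicate 2 just under WT replicate 1. The log2 difference was -0.10, with a 95% interval of -0.24 to 0.04 (adjusted p = 0.584 in limma). The ADP receptor P2ry12, which guides microglial processes to injury, was at 347 and 313 in WT and 343 and 322 in RKO (0.01, interval -0.13 to 0.16). Its groups overlapped, and so did those of Tmem119, a membrane protein used to tell microglia from other macrophages (550.2 and 579 in WT, 518 and 562 in RKO, -0.07, interval -0.20 to 0.07).

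P2ry13, a second ADP receptor, was lower in both RKO arrays, at 699.5 and 719 against 755 and 811 in WT (log2 difference -0.14, SE 0.0595, unadjusted p = 0.0372, adjusted p = 0.344 in limma). Fcrls, an Fc receptor-like protein found in mouse microglia, was at 295 and 294 in WT and at 244 and 274 in RKO (-0.19, SE 0.0658, unadjusted p = 0.0161, adjusted p = 0.244 in limma). The other tested markers of this group, Siglech, Olfml3, Selplg and Itgb5, lay between -0.11 and 0.05. Aif1, which encodes the widely stained marker IBA1, was below the filter at 146 and 149 in WT and 130.4 and 147 in RKO, and its groups overlapped. Gpr34, a lysophosphatidylserine receptor, was also below it, at 106 and 88.3 in WT and 94.7 and 81.9 in RKO.

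Of the 7 transcription factors and growth signals of microglia, 0 were called and 0 had an unadjusted p under 0.05 in limma. Over all tested genes the shares were 1.60% and 12.8%. Spi1, which encodes PU.1, was at 259 and 225 in WT and 230.0 and 228 in RKO (log2 difference -0.07, interval -0.23 to 0.08). Irf8, which acts with PU.1, was at 244 and 256 in WT and 262 and 254 in RKO (0.04, interval -0.09 to 0.17). Both pairs of groups overlapped. Csf1r, the receptor on which microglia depend for survival, was at 947 and 949 in WT and 884 and 929 in RKO (-0.07, interval -0.19 to 0.06). Its ligands Csf1 and Il34, the second made largely by neurons, stood at -0.03 and -0.04. Cx3cl1, the neuronal ligand of Cx3cr1, was at 1993 and 2164 in WT and 1922 and 2044 in RKO (-0.07, interval -0.21 to 0.07), and its groups overlapped. Tgfb1, which maintains the microglial state, was at 0.06.

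Receptors and adaptors of phagocytic signalling also did not pass. Of the 11 tested in this group, 0 were called in limma, and 2, Ly86 and Fcer1g, had an unadjusted p under 0.05. Such a p was found for 12.8% of all tested genes. Ly86, or MD-1, a partner of a Toll-like receptor homologue, was at 1448 and 1347 in WT and 1212 and 1249 in RKO. Both RKO arrays were lower, by 1.14-fold (log2 difference -0.18, SE 0.0597, unadjusted p = 0.0110, adjusted p = 0.204 in limma). With an intensity trend in the variance model Ly86 was called (adjusted p = 0.0296 in limma). Fcer1g, the signalling chain shared by Fc receptors, was at 685 and 657 in WT and 616 and 610.0 in RKO (-0.13, SE 0.0561, unadjusted p = 0.0405, adjusted p = 0.354 in limma). The Fc receptors Fcgr1 and Fcgr3 lay at -0.13 and -0.12, and both RKO arrays were below both WT arrays in each.

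Trem2, a lipid-sensing receptor of microglia, lay above 0. It stood at 402 and 426 in WT and at 436 and 438 in RKO (log2 difference 0.08, interval -0.05 to 0.20, adjusted p = 0.651 in limma). Its adaptor Tyrobp was at -0.04 with overlapping groups. Itgam and Itgb2, which form complement receptor 3, were at 0.05 and 0.0032. Of the leukocyte genes Laptm5, Cd53 and Cd33, Cd53 was lower in both RKO arrays (486 and 494 in WT, 459 and 458 in RKO, -0.10, adjusted p = 0.529 in limma). Ptprc, which encodes the leukocyte antigen CD45, was just below the filter, at 172 and 168 in WT and 166 and 152 in RKO, and the co-stimulator Cd86 was also below it.

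Lyz2 was the 1 member called lower. It encodes lysozyme M, which cuts bacterial cell walls, and it is expressed strongly in macrophages, monocytes and neutrophils and weakly in resting microglia. It was measured at 472 and 454 in WT against 353 and 377 in RKO, and both RKO values were below both WT values. The fall was 1.27-fold (log2 difference -0.34, SE 0.0598, 95% interval -0.47 to -0.21, adjusted p = 0.0153 in limma). The call was lost without WT replicate 1 (adjusted p = 0.0636), without RKO replicate 1 (0.169), without RKO replicate 2 (0.0531) and when dim genes were kept (0.176), all in limma. Lyz1, a neighbouring close copy, was at 251 and 245 in WT and 216 and 239 in RKO (-0.13, adjusted p = 0.449 in limma).

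Among the 7 lysosomal members 1 was lower, 0 were higher and 6 did not pass. Over all tested genes 0.964% were lower and 0.640% higher. Ctsh, a cysteine protease with aminopeptidase activity, was at 351 and 303 in WT and 255 and 274 in RKO. Both RKO arrays were lower, by 1.23-fold (log2 difference -0.30, SE 0.0749, unadjusted p = 0.00209, adjusted p = 0.0838 in limma), and the WT arrays differed from each other by more than the RKO arrays did. Ctsh passed with median centring, with an intensity trend and with a crossed replicate block. With median centring and with the crossed block each member examined had the same SE, so the spread of Ctsh itself did not enter. Its log2 difference was -0.41 without WT replicate 2 and -0.20 without WT replicate 1. The abundant lysosomal proteases Ctsb, Ctsd and Lgmn, which neurons and other cells also express, lay between -0.02 and 0.01. Ctss, a cathepsin largely of microglia in brain, was at -0.07 and the lysosomal membrane protein Cd68 at -0.05.

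**Figure D3:**
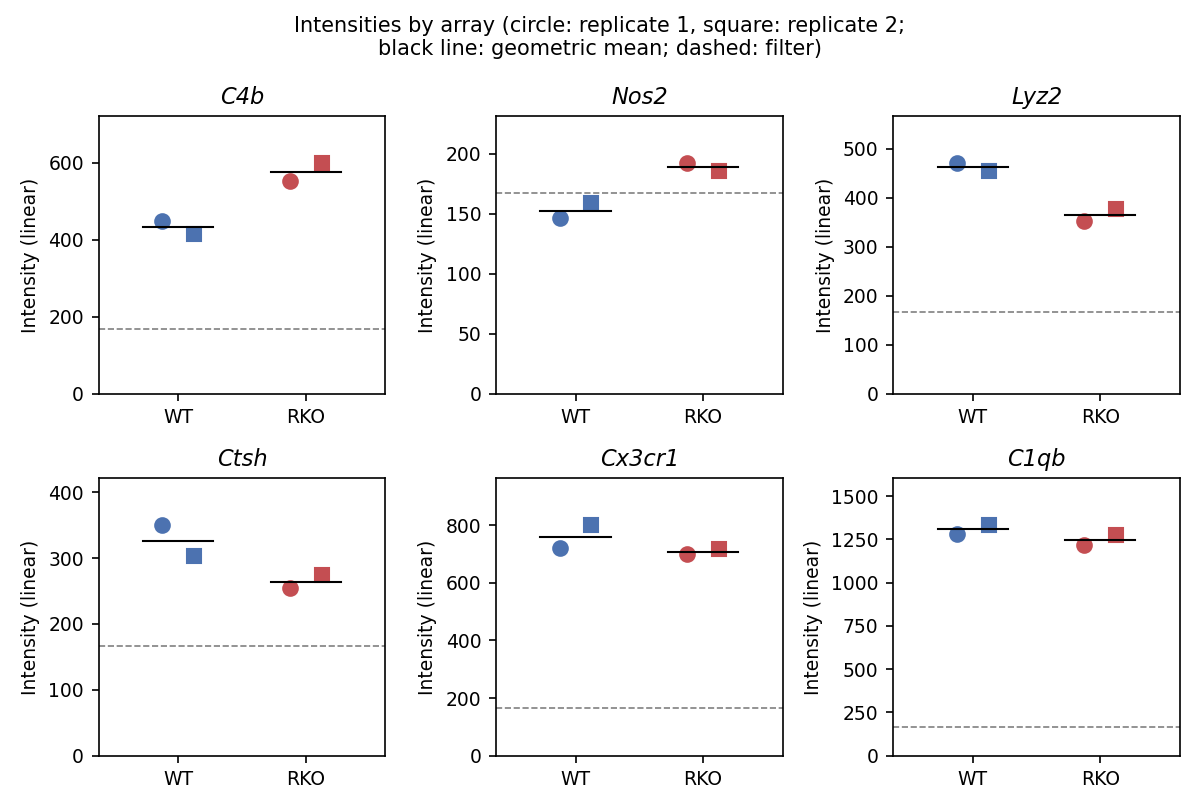
Linear intensity in each array of C4b, Nos2, Lyz2, Ctsh, Cx3cr1 and C1qb, with circles for replicate 1, squares for replicate 2, a black line at each group's geometric mean and a dashed line at the filter's intensity of 167. The WT values of Nos2, 147 and 159, lie under that line. The groups do not overlap in any of the 6 panels, though for Cx3cr1 they lie within about 1 intensity unit of each other, at 718.6 and 719.7. Of all tested genes, 17.2% had both RKO arrays above both WT arrays and 24.6% had them below. The groups of P2ry12, Tmem119 and C1qa, which are not shown, overlapped.

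Markers of macrophages at the borders of the brain were given beside Lyz2, since such cells express it. Mrc1, the mannose receptor of perivascular and meningeal macrophages, was below the filter, at 139 and 166 in WT and 127 and 131 in RKO (log2 difference -0.24). The scavenger receptor Cd163 of the same cells was also dim, at 103 and 102 in WT and 104 and 108 in RKO. All 15 genes of a longer border macrophage list had a probe set and 5 were tested, with a median of -0.07. Colec12, a scavenger receptor also expressed by vascular and meningeal cells, was lower (426 and 401 in WT, 314 and 308 in RKO, -0.41, adjusted p = 0.00437 in limma), and 4 did not pass. Of all tested genes 0.964% were called lower. The summed intensity of the border macrophage list was 2613 and 2584 in WT against 2452 and 2466 in RKO. That sum includes Colec12, whose own fall is a large part of the difference, and it was not computed without Colec12. Lyve1, Pf4, Cbr2, F13a1, Ms4a7 and Folr2, which define these cells, were all below the filter. Of 12 monocyte and neutrophil genes with a probe set, 0 were above the filter. Their summed intensity was 1017 and 1083 in WT against 1162 and 1108 in RKO, higher in both RKO arrays. Dim genes leaned upward in RKO in general, and the part of that lean in this rise was not tested. The part of border macrophages and of leptomeningeal tissue in the fall of Lyz2 was not tested.

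**Figure D4:**
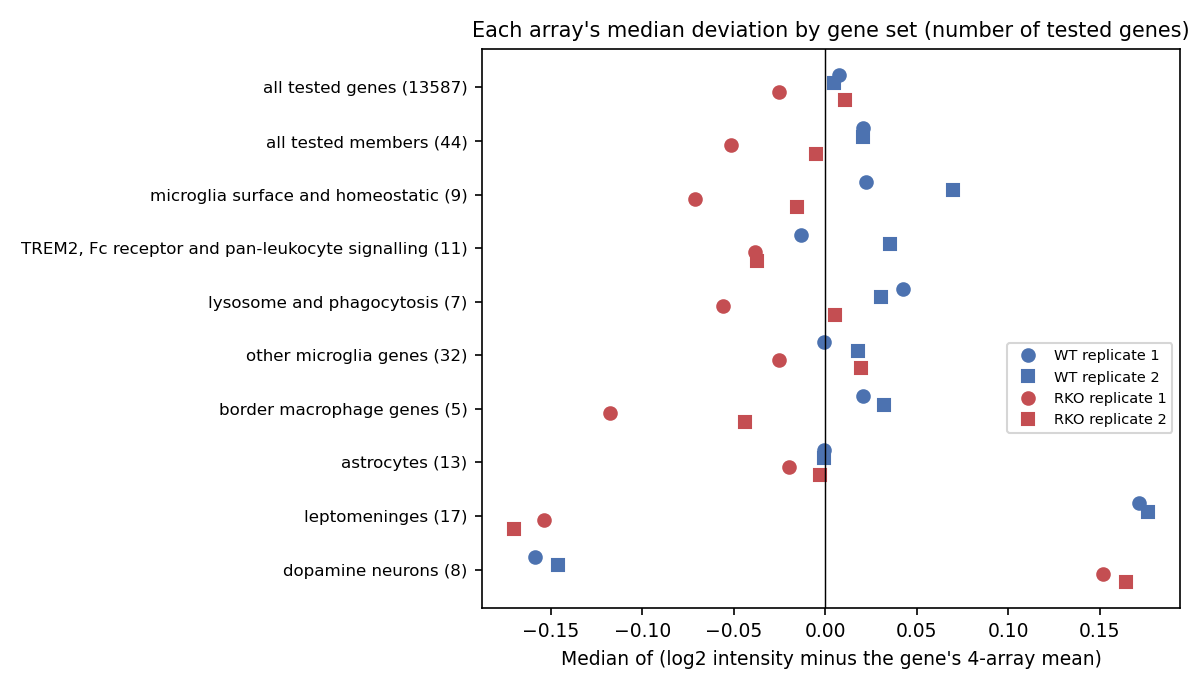
For each array, the median over the tested genes of a set of log2 intensity minus the gene's mean over the 4 arrays; the number of tested genes stands in parentheses. The members lie at 0.02 in both WT arrays, -0.05 in RKO replicate 1 and -0.01 in RKO replicate 2, while leptomeningeal genes lie at 0.17 and 0.18 in WT and -0.15 and -0.17 in RKO.

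Nos2 makes nitric oxide in activated macrophages and is usually low in unchallenged brain. WT gave 147 and 159, and RKO 193 and 185. Both RKO arrays were above both WT arrays, and both WT values were under the filter's intensity of 167. The rise was 1.24-fold (log2 difference 0.31, SE 0.0611, 95% interval 0.17 to 0.44, adjusted p = 0.0311 in limma). With a mean of 169.7 it was the member closest above the filter, and Ptprc with 165 the closest below. The call was lost with no filter (adjusted p = 0.244), with quantile normalization (0.28, adjusted p = 0.0625) and without WT replicate 1, RKO replicate 1 or RKO replicate 2 (0.25 to 0.34, adjusted p = 0.104 to 0.279), all in limma. Dim genes leaned upward in RKO, by the median of 0.06 given above; the part of that lean in the rise of Nos2 was not tested.

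The 2 tested pattern recognition receptors lay on opposite sides of 0. Tlr2, the receptor for bacterial lipoproteins, was at 237 and 255 in WT and 269 and 274 in RKO (log2 difference 0.14, SE 0.0595, unadjusted p = 0.0361, adjusted p = 0.339 in limma). Tlr3, which senses double-stranded RNA, was at 439 and 417 in WT and 373 and 405 in RKO (-0.14, SE 0.0621, unadjusted p = 0.0490, adjusted p = 0.386 in limma). Neither pair of groups overlapped, and neither gene passed. Cd14 and Tlr4, partners in the response to endotoxin, Tlr7, which senses single-stranded RNA, and Nlrp3, the sensor of an inflammasome, were below the filter. Tlr4 was at 65.4 and 75.5 in WT and 61.3 and 59.6 in RKO.

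Among the cytokines, Il18 was at 528 and 491 in WT and 447 and 476 in RKO (log2 difference -0.14, SE 0.0622, unadjusted p = 0.0420, adjusted p = 0.361 in limma), with both RKO arrays lower. The chemokine Ccl5 was at -0.03 with overlapping groups. Il1b, Tnf, Ccl2 and Cxcl10 were below the filter. Ccl2, which recruits monocytes, was at 111 and 121 in WT and 148 and 127 in RKO (0.24), above in both RKO arrays. Il1b was at 88.5 and 121 in WT and 124 and 114 in RKO, with overlapping groups. Over the 14 members below the filter the log2 differences ran from -0.24 (Mrc1) to 0.24 (Ccl2). In a limma fit without the filter 0 of these 14 passed, and Mrc1, Tlr4 and Ccl2 had an unadjusted p under 0.05. In that fit 0.155% of all genes passed, and the share of all genes at that unadjusted p was not counted.

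Genes that REV-ERB has been reported to repress in macrophages or other cells were listed apart, 10 in all, of which 9 had a probe set and 4 were tested. C4b was higher, and Il18 (-0.14), Cx3cr1 (-0.10) and Mmp9 (0.0027) did not pass. Of all tested genes 0.640% were called higher and 0.964% lower. At an unadjusted p under 0.05 in limma, C4b was higher and Il18 lower, beside 5.90% and 6.90% of all tested genes. Both are members and were already counted above. The other 5, Ccl2, Nlrp3, Il1b, Il6 and Tlr4, were below the filter. Il6 was at 16.2 and 18.7 in WT and 17.8 and 18.9 in RKO, among the dimmest values used here.

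Genes of disease-associated microglia did not pass either. Of 21 listed, 14 were tested, 0 were called in limma, 4 had an unadjusted p under 0.05 (beside 12.8% of all tested genes) and the median was -0.05. Ctsl, a lysosomal protease, was at 1893 and 1892 in WT and 2125 and 2221 in RKO (log2 difference 0.20, adjusted p = 0.131 in limma), and the lipoprotein Apoe, made mostly by astrocytes, was at 0.14. B2m, the light chain of class I molecules, and the tetraspanin Cd9 lay at -0.16 and -0.15. The defining genes Cst7, Itgax, Lpl, Clec7a and Cd52 were below the filter. In the second microglia list the lowest unadjusted p values were those of Ccl3 (-0.22), Mef2a (-0.18), Slco2b1 (-0.18) and Unc93b1 (-0.14), with adjusted p of 0.156 to 0.311 in limma.

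Astrocytes can also make C4b, and their genes are given beside it. Of 13 astrocyte genes tested, 0 were higher, Gfap (-0.51) and Aldh1l1 (-0.31) were lower and 11 did not pass, with a median of 0.0054. The summed intensity of the 13 was 43188 and 42948 in WT against 43151 and 43627 in RKO. Gfap, the filament protein of reactive astrocytes, fell from 1119 and 1159 in WT to 776 and 828 in RKO. In all, 7 of the 13 lay above 0, and at an unadjusted p under 0.05 there were 2 higher and 4 lower. Of all tested genes 5.90% were higher and 6.90% lower at that p, and 0.640% and 0.964% were called. The part of astrocytes in the rise of C4b was not tested. Of 12 lymphocyte genes with a probe set, Cd3e and Cd79b were tested and did not pass.

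**Figure D5:**
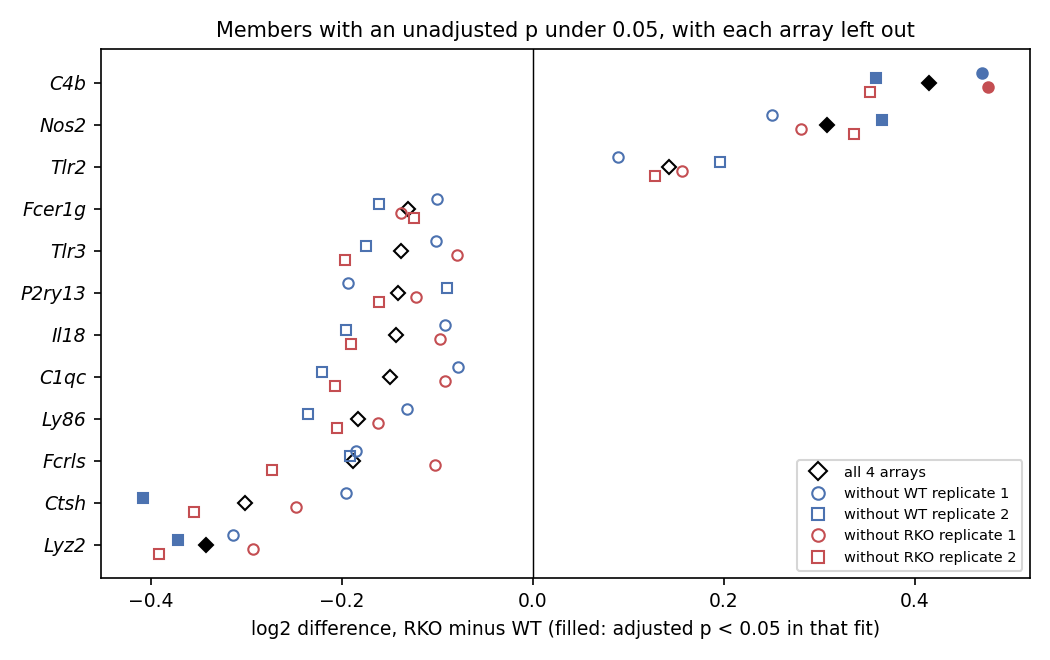
Log2 difference, RKO minus WT, of the 12 members with an unadjusted p under 0.05, with all 4 arrays (black diamonds) and with each array left out (blue for a WT array, red for an RKO array). Filled symbols mark an adjusted p under 0.05 in that fit. Each of the 12 keeps its side of 0. That was fixed in advance, since the groups overlap for none of the 12 and leaving out 1 array cannot reverse the sign. Of all tested genes, 17.2% had both RKO arrays above both WT arrays and 24.6% had them below.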

How the data were processed

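The deposited values are linear normalised intensities, 1 for each probe set in each array, made by the authors with GCOS and RMA per the submitters' processing notes, without versions or settings. RMA usually equalises the arrays' distributions, which would hide a change shared by most genes. The deposited arrays were not fully equal. First quartiles over all probe sets were 93.6 and 95.6 in WT and 98.3 and 95.4 in RKO. Of 35556 probe sets, 21789 had 1 gene symbol in the platform annotation, 1621 had several and 12146 were unnamed here. Here log2 was taken without a pseudocount. Each of 19938 genes was represented by its brightest probe set, and 6351 genes whose mean lay under the 40th percentile (log2 7.38, over every probe set) were not tested.

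The groups were compared in limma 3.58.1 (lmFit, then eBayes; R 4.3.3), two-sided and without covariates, with 2 residual and 8.73 prior degrees of freedom. P-values measure the spread between these samples only. The fit was tested on simulated data. With 2 arrays a group, the smallest p an exact permutation test allows is 0.333, so none was run. The filter, the normalization, the probe set choice, the variance model, a replicate block and the arrays kept were varied. The members, their roles and all lists were chosen with earlier results of these data known, so no list was tested as a whole. The text gives full values for members called, for those at an unadjusted p under 0.05, for 8 defining microglia markers and for the 2 of lowest p in each role, and of other lists it names the called genes and at most 4 others of lowest p, beside markers below the filter. Start regions are those of RefSeq for GRCm38.p6. No array's values were duplicated: at most 5 probe sets were identical between any pair of arrays.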

Additional observations from a re-analysis of the deposited data

How the results depend on the processing

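The count of 3 called members (C4b, Nos2 and Lyz2) fell to 0 in limma with no filter on dim probe sets, with 9 at an unadjusted p under 0.05. The share of all genes at that unadjusted p with no filter was not counted. The members' count rose to 5 with an intensity trend, which added Ctsh and Ly86, and it also changed with the array left out. It was 2 to 4 with the other filter, the other scalings, the mean of all probe sets and the blocks. The share of all genes called moved as well. It was 1.60% in the main fit, 0.155% with no filter and 3.67% with the trend. In the settings that gave 2 to 4 members it ran from 1.22% (quantile normalization) to 5.12% (crossed replicate block). The count of 3 genes in the wider complement list fell to 0 with no filter, with 7 at an unadjusted p under 0.05 in limma, and ran from 1 to 3 with 1 array left out. Without RKO replicate 2, 0 members and 1 gene of that list (Serping1) were called. The median of -0.06 over the tested members ran from -0.086 (without RKO replicate 2) to -0.031 (without RKO replicate 1) and stayed below 0 in every alternative run. The median over all tested genes ran from -0.031 to 0.0054, with the same arrays left out at its ends. The mean of all probe sets, the intensity trend and the blocks could not change the members' median. Each member had 1 probe set, and a trend or a balanced block leaves the log2 differences as they are. Differences near 0 changed sign: P2ry12 ran from -0.061 to 0.087, Spi1 from -0.17 to 0.025 and C1qa from -0.062 to 0.062 with 1 array left out, and C1qa was -0.0080 with median centring. The cause of these changes was not tested. Over all genes, 218 were called, against 31 with no filter and 499 with an intensity trend.

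The labels number the replicates alike in both groups but state no shared litter or day. With the replicate block 3 members were called, the same 3 as without it, and 259 genes in all. The differences between replicates correlated at -0.114 across genes, so a crossed replicate block was added after seeing the data, with 4 members and 696 genes called. In that fit each member examined had the same SE, 0.0656, and with median centring the same SE, 0.0732. A gene's own replicate spread therefore did not enter these 2 fits, and their counts cannot be credited to the pairing or the scaling alone. Low signal limits what can be said of the 14 members below the filter.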
